A study of Fasciola hepatica with 9 samples.

Results

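The later phase of embryonic development in eggs of the liver fluke *Fasciola hepatica* was described by comparing eggs kept for 10 days after laying (T10) with eggs kept for 5 days (T5). The comparison holds 6 of the 9 samples of the series, 3 at T10 and 3 at T5, chosen by their labelled age and by no measured value. The other 3 samples are freshly laid eggs (T0), which took part in the fit as a time point of their own. They share in its estimate of the spread and are otherwise quoted below only to place a gene or a gene list. All eggs were laid in culture by adult worms from the bile ducts of naturally infected cattle, pooled as one harvest and then shared out among the time points. T10 and T5 eggs alike stood in sterilised water with penicillin and streptomycin, in the dark and at the body temperature of the mammalian host, are labelled as untreated, and differ by label in age alone. The sources used here describe no sorting by stage or viability, so every library is an average over the eggs of its portion. In a separate hatching experiment, the study found later hatching and more dead eggs the longer eggs had been kept at host temperature. The share of dead or delayed eggs in each sequenced portion is not known. Its part in the differences below was not tested, so age by label need not equal progress of the embryo.

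A fluke egg is laid as one fertilised cell packed with vitelline cells, which carry yolk and the precursors of the shell, inside an eggshell of cross-linked vitelline proteins. As the embryo divides it uses up these cells and builds the miracidium, a swimming larva with cilia, muscle, nerves and eye spots that hatches in fresh water. An RNA level in a whole egg therefore sums maternal and vitelline transcripts with those of the growing embryo. In such bulk RNA, fewer cells of a type and less RNA per cell cannot be told apart.

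The 3′ ends of polyadenylated transcripts were read, and the deposited tables give an estimated read count for each of 9708 protein-coding gene models. The total count per library was 8018586 to 9543870 at T10 and 8945151 to 9285475 at T5, and 6319 models had enough counts to be tested. Levels are given as CPM, in which the counts of every library are brought to a common total after correction with TMM factors (trimmed mean of M values). Log2 fold changes are T10 over T5 and are given ± SE. Vitelline protein B1, a shell precursor that marks the vitelline cells of an egg, stood at 45730, 14003 and 19982 CPM at T10 and at 34630, 34225 and 31642 CPM at T5. The libraries of both time points thus hold this transcript of the vitelline cells, at very different levels within T10. Since the 3 replicates of an age were drawn from a single harvest, p-values measure only the spread between such draws, which may be technical. That spread is estimated over all 9 libraries, those of T0 included.

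T10 replicate 1 stood apart from the other T10 libraries. The root mean square difference in log2 CPM over the tested genes was 0.89 between T10 replicate 1 and either of the others, and 0.69 between T10 replicates 2 and 3. From T10 replicate 1 to T5 replicate 3 it was 0.88, no more than to its own group, but T10 replicates 2 and 3 were 0.83 and 0.85 from T5 replicate 3. The mean distance to the T5 libraries was 0.97, 0.96 and 1.0 for T10 replicates 1, 2 and 3. By this measure T10 replicate 1 was not nearer to T5 than T10 replicate 2. T5 replicate 3 was 0.85 and 0.78 from T5 replicates 1 and 2, which were 0.79 from each other. Its mean distance was 0.82 to the other T5 libraries and 0.85 to the T10 libraries. For T5 replicates 1 and 2 the mean distance to T10 was 1.05 and 1.02, so T5 replicate 3 was the T5 library nearest to T10. To see where each library lies, genes were called with that library left out, and the left-out library was placed on a scale from 0, the mean of the other time point, to 1, the mean of its own remaining pair. Both the genes and the remaining pair change with the library left out, so the positions do not share a common scale. For T10 replicates 2 and 3 that pair includes T10 replicate 1. T10 replicate 1 took a median position of 0.35 over 1552 genes (quartiles 0.09 and 0.67), against 0.87 over 317 genes for T10 replicate 2 and 1.07 over 172 genes for T10 replicate 3. T5 replicate 3 took 0.57 over 848 genes, against 1.02 over 144 genes and 1.05 over 106 genes for T5 replicates 1 and 2. On these genes 1 library of each age thus lies between the time points, and T10 replicate 1 lies nearer to T5 than to its own group on most of these genes, past the halfway mark for only 36.5% of them. It lay on the T10 side of the T5 mean for 81.5% of them.

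**Figure D1:**
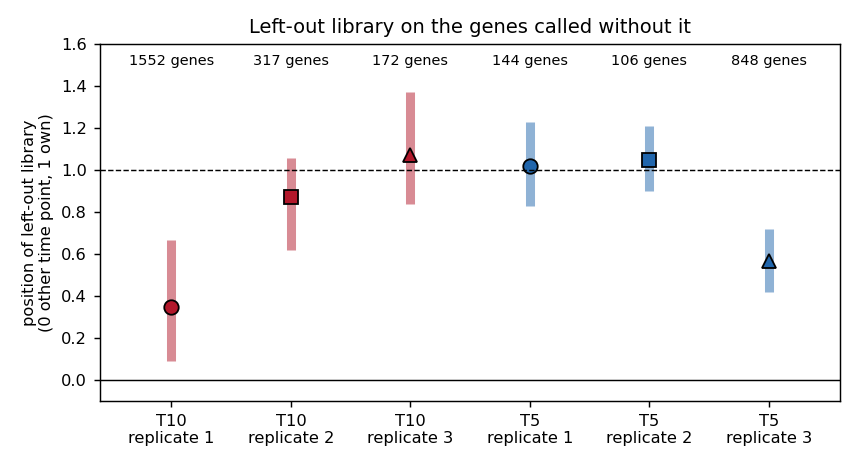
Position of each T10 and T5 library on the genes called when it was left out, from 0 (mean of the other time point) to 1 (mean of the 2 remaining libraries of its own time point). Points are medians and bars run between the quartiles. T10 replicate 1 sits at 0.35 and T5 replicate 3 at 0.57, the other 4 between 0.87 and 1.07.

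Between T5 and T10, 288 of the 6319 tested genes were higher and 386 lower at T10 (4.56% and 6.11%, adjusted p under 0.05, edgeR's quasi-likelihood test with Benjamini-Hochberg adjustment). The changes were moderate, with a median log2 fold change of 0.81 among the higher genes and of -0.79 among the lower ones. The rule of an absolute log2 fold change over 1, together with a median TPM above 0 at both ages, left 179 genes (2.83%), 93 higher and 86 lower, and 433 genes (6.69%) without T10 replicate 1. In CPM, all 3 T10 libraries lay above all 3 T5 libraries for 281 of the 288 higher genes, against 14.8% of all tested genes, and below them for 344 of the 386 lower genes, against 12.2%. Genes that fell had longer transcripts than genes that rose, with median lengths of 3436 and 2212 bases. An informative product name, in the parts of the annotation used here, was available for 48.7% and 32.6% of them. Over all tested genes these values were 2913 bases and 30.1%.

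Which direction prevails depends on the scaling. With library size alone in place of TMM, the median log2 fold change of all tested genes was 0.25 instead of 0.02, and the counts became 684 higher and 247 lower, or 73.5% higher instead of 42.7%. All 288 higher genes and 223 of the 386 lower ones were called there as well. With only the 6 libraries of T5 and T10 in the fit 6097 genes were tested and the numbers were 125 and 142, of which 122 and all 142 belong to the genes above. The main fit also draws its spread from the T0 libraries. Their root mean square differences in log2 CPM were 0.56 to 0.64, against 0.69 to 0.89 within T10.

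Most of these changes hold when T10 replicate 1 is left out. Of the 288 higher genes 262 were still called, and of the 386 lower genes 380, and none of the 674 turned its sign. The number of calls without this library was larger, 579 higher (8.95%) and 973 lower (15.0%), so that 317 rises and 593 falls were called only there. Over the genes called in all libraries, the median log2 fold change without T10 replicate 1 was 0.81 for the higher genes, as before, and -1.0 for the lower ones. The falls were thus larger without this library, and the rises were not. The 26 rises that were lost include the actin model described below, ATP synthase subunit e, a subunit of respiratory complex I (NDUFS5) and the ribosomal proteins L34e and S19a, whose levels were highest in T10 replicate 1.

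**Figure D2:**
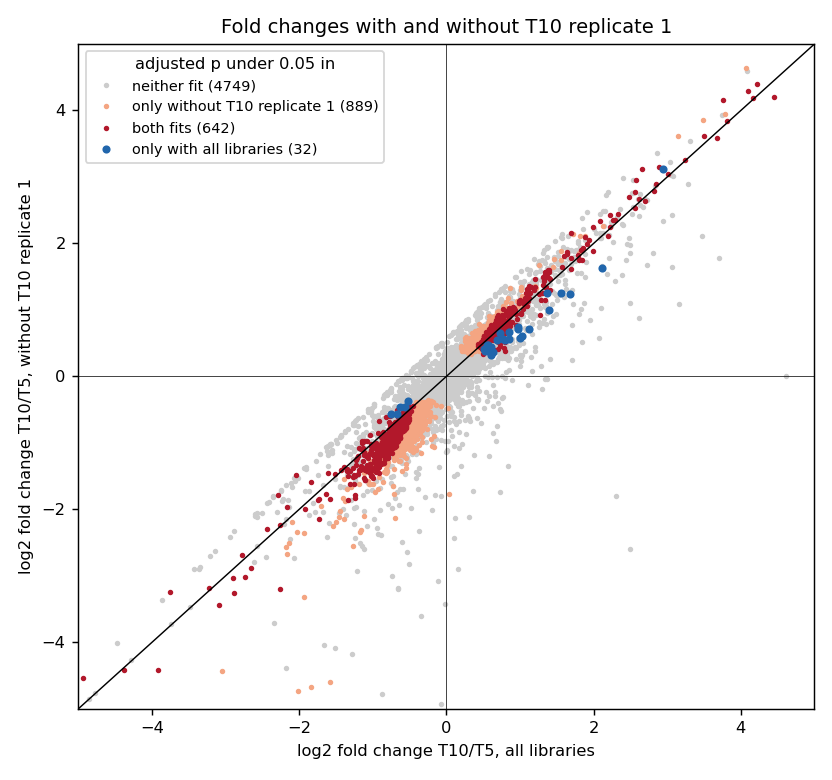
Log2 fold change of T10 over T5 for each gene with all libraries (x axis) and without T10 replicate 1 (y axis), coloured by the fit in which adjusted p was under 0.05. Of the genes tested in both fits, 642 were called in both, 32 only with all libraries and 889 only without T10 replicate 1, and the last lie mostly below the diagonal among the falls. The axes leave out 42 genes with larger values.

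The other libraries mattered as much. Without T10 replicate 2 or 3 the calls numbered 136 and 73 higher and 181 and 99 lower. Without T5 replicate 1 or 2 they numbered 68 and 44 higher and 76 and 62 lower, and without T5 replicate 3 they numbered 308 and 540. A core of 35 higher genes (0.554%) and 48 lower genes (0.760%) was called in the fit of all libraries and in each of these 6 fits. Of the 83, 31 have an informative name. They include myophilin, a tetraspanin, an innexin, a dynein light chain, surfactant protein B and TRM112 among the rises, and myoglobin 2, serpin, glutamate dehydrogenase, transketolase, cathepsin B and an R2 retroelement among the falls.

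**Figure D3:**
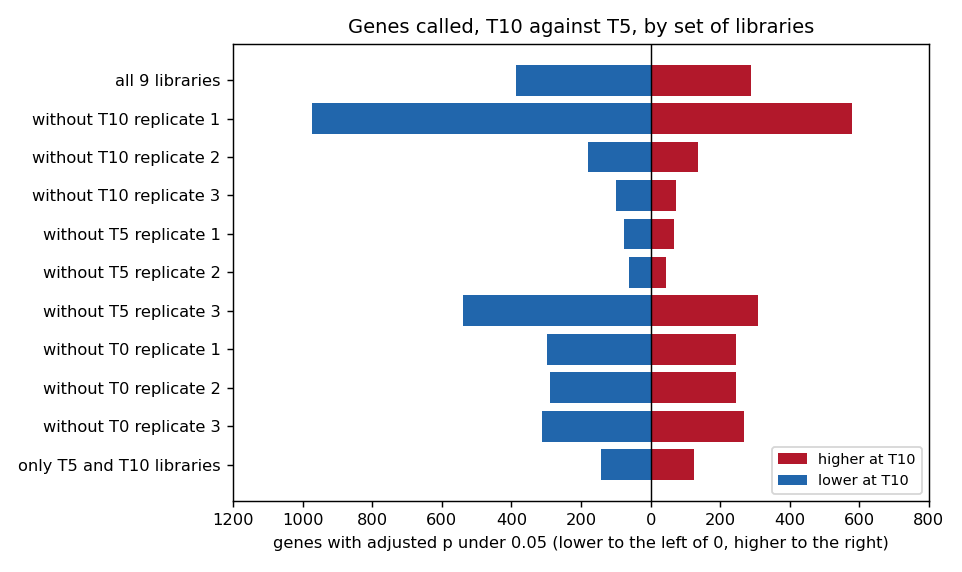
Genes with adjusted p under 0.05 for T10 against T5, higher to the right and lower to the left of 0, with all 9 libraries, with each library left out in turn and with the 6 libraries of T5 and T10 alone. The counts run from 44 higher and 62 lower without T5 replicate 2 to 579 higher and 973 lower without T10 replicate 1.

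The 12 largest rises and the 12 largest falls with an informative name were taken from genes of at least 10 CPM whose T10 and T5 libraries do not overlap, so separate groups are a condition of the choice. Myophilin, a calponin-like muscle protein first known from tapeworms, had 669, 744 and 854 CPM at T10 and 258, 250 and 256 CPM at T5. Its groups are far apart, and its T5 libraries are almost equal (log2 fold change 1.57 ± 0.15, adjusted p = 3.7e-05, edgeR). At laying it had 55.2 to 75.4 CPM. A tetraspanin, one of the 4-pass membrane proteins of which some coat the tegument of flukes, had 60.2, 33.0 and 79.0 CPM at T10 and 9.76, 15.1 and 24.4 CPM at T5. The groups do not overlap (log2 fold change 1.80 ± 0.32, adjusted p = 0.0055, edgeR), and the T10 level is near that at laying, 46.5 to 69.2 CPM. An innexin, the protein of gap junctions in invertebrates, had 124, 132 and 116 CPM at T10 and 37.5, 34.4 and 73.6 CPM at T5. T5 replicate 3 is the highest T5 library but stays below T10 (log2 fold change 1.35 ± 0.25, adjusted p = 0.0067, edgeR). Protein phosphatase 1 regulatory subunit 12A, which in mammals directs the phosphatase to myosin, had 12.3, 19.5 and 25.4 CPM at T10 and 2.87, 4.01 and 11.4 CPM at T5. Here T10 replicate 1 and T5 replicate 3 almost touch (log2 fold change 1.64 ± 0.47, adjusted p = 0.036, edgeR). An actin model of low level had 17.6, 11.2 and 9.43 CPM at T10 and 2.53, 4.23 and 6.16 CPM at T5. Its adjusted p was 0.031 with all libraries and 0.057 without T10 replicate 1 (log2 fold changes 1.55 and 1.25, edgeR), and of the 6 fits that left out 1 T5 or T10 library 1 called it, so its call does not depend on T10 replicate 1 alone.

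Among the DNA-binding proteins, a pair of zinc finger genes of the C2H2 type stood out. The model with the larger change had 10.4, 9.99 and 12 CPM at T10 and 0, 1.27 and 0.481 CPM at T5, and no count in any T0 library. It was close to silent until T5 and even across the T10 libraries (log2 fold change 4.17 ± 0.84, adjusted p = 0.010, edgeR). The other had 14.0, 15.5 and 18.6 CPM at T10 and 4.94, 0.845 and 4.24 CPM at T5, and likewise no count at T0 (log2 fold change 2.26 ± 0.55, adjusted p = 0.022, edgeR). Another C2H2 gene moved the other way, with 128, 88.2 and 66.2 CPM at T10 and 209, 202 and 136 CPM at T5 (log2 fold change -0.95 ± 0.22, adjusted p = 0.017, edgeR). Of 19 tested C2H2 genes, 2 rose and 1 fell, and the median log2 fold change was 0.15.

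The remaining large rises are of mixed function. Surfactant protein B, named after a lung protein of the saposin fold, which binds lipids, had 552, 1010 and 866 CPM at T10 and 235, 275 and 416 CPM at T5 (log2 fold change 1.39 ± 0.23, adjusted p = 0.0029, edgeR). T10 replicate 1 is its lowest T10 library and still above all of T5. TRM112, which in yeast activates methyltransferases that modify tRNA, rRNA and a release factor, had 46.2, 50.5 and 37.3 CPM at T10 and 21.2, 19.2 and 15.4 CPM at T5 (log2 fold change 1.26 ± 0.22, adjusted p = 0.0043, edgeR). A protein with a TLC domain, a fold shared with ceramide synthases, had 12.6, 15.6 and 15.1 CPM at T10 and 2.30, 3.70 and 7.32 CPM at T5. A protein with a Fanconi A domain, named from a match in Echinostoma caproni, had 15.4, 20.6 and 6.19 CPM at T10 and 2.53, 2.01 and 4.62 CPM at T5. Both sets of libraries are separate, with log2 fold changes of 1.69 and 2.19 and adjusted p of 0.018 and 0.016 (edgeR).

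Under this choice the deepest fall belonged to myoglobin 2, an oxygen-binding globin. It had 33.7, 23.9 and 12.1 CPM at T10 and 235, 173 and 105 CPM at T5, with 4.71, 2.76 and 6.05 CPM at T0. The gene was thus high at T5 only, and its T10 libraries are all below its lowest T5 library (log2 fold change -2.89 ± 0.36, adjusted p = 0.0011, edgeR). Pyrimidine 5'-nucleotidase, which removes the phosphate from pyrimidine nucleotides, had 1.92, 3.82 and 2.47 CPM at T10 and 16.6, 15.2 and 5.20 CPM at T5. It too was low at laying, at 0.291 to 1.47 CPM (log2 fold change -2.17 ± 0.57, adjusted p = 0.027, edgeR). Serpin, an inhibitor of serine peptidases, had 3.44, 3.82 and 0.619 CPM at T10 and 17.9, 20.6 and 12.3 CPM at T5, far below the 485 to 501 CPM of T0 (log2 fold change -2.74 ± 0.38, adjusted p = 0.0016, edgeR).

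Enzymes and an RNA helicase were among the falls as well. Glutamate dehydrogenase, which splits glutamate into ammonia and a citric acid cycle intermediate, had 36.3, 34.7 and 23.7 CPM at T10 and 127, 99.6 and 88.7 CPM at T5. The groups are wide apart and T10 replicate 1 lies with the others (log2 fold change -1.74 ± 0.19, adjusted p = 1.6e-04, edgeR). Transketolase, an enzyme of the pentose phosphate pathway, had 5.06, 5.68 and 5.57 CPM at T10 and 12.2, 21.3 and 13.3 CPM at T5. Its T10 libraries are almost equal (log2 fold change -1.52 ± 0.27, adjusted p = 0.0055, edgeR). The RNA helicase DEAD box polypeptide 21, nucleolar in mammals, had 35.8, 39.6 and 28.6 CPM at T10 and 78, 86.8 and 75.4 CPM at T5 (log2 fold change -1.21 ± 0.16, adjusted p = 7.6e-04, edgeR). The most abundant transcript among the large falls, a Pol polyprotein of an R2 retroelement, had 1399, 974 and 794 CPM at T10 and 4050, 3196 and 2227 CPM at T5, after 11796 to 12507 CPM at T0 (log2 fold change -1.58 ± 0.25, adjusted p = 0.0027, edgeR).

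The other falls of this size concern a receptor, regulators and a ciliary protein. A 7 transmembrane receptor had 7.79, 5.29 and 4.64 CPM at T10 and 13.7, 14.9 and 13.3 CPM at T5. A universal stress family protein had 12, 6.66 and 8.58 CPM at T10 and 26.2, 20.8 and 18.6 CPM at T5. A THAP domain protein, of a DNA-binding zinc finger type, had 6.47, 4.90 and 5.41 CPM at T10 and 16.3, 11.2 and 12.9 CPM at T5. Their log2 fold changes lay between -1.25 and -1.27, with adjusted p of 0.0040, 0.0097 and 0.017 (edgeR). B9 domain-containing protein 2, which belongs to the gate at the base of cilia, had 4.65, 6.27 and 3.71 CPM at T10 and 15.4, 14.8 and 8.28 CPM at T5. The putative transcription factor LCR-F1 had 16.8, 15.2 and 6.88 CPM at T10 and 47.5, 24.8 and 19.9 CPM at T5. The log2 fold changes of these 2 genes were -1.39 and -1.25, with adjusted p of 0.020 and 0.034 (edgeR). Of the 12 largest rises and 12 largest falls, all but actin kept an adjusted p under 0.05 without T10 replicate 1. That fit made the most calls. In the 6 fits that left out 1 T5 or T10 library, the TLC domain protein, phosphatase subunit 12A and LCR-F1 were called 2 times each. The Fanconi A domain protein, second C2H2 gene, mitochondrial ribosomal S24, B9 domain-containing protein 2 and pyrimidine 5'-nucleotidase were called 3 times each. The THAP domain protein was called 4 times, actin 1 time and the rest in all 6.

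**Figure D4:**
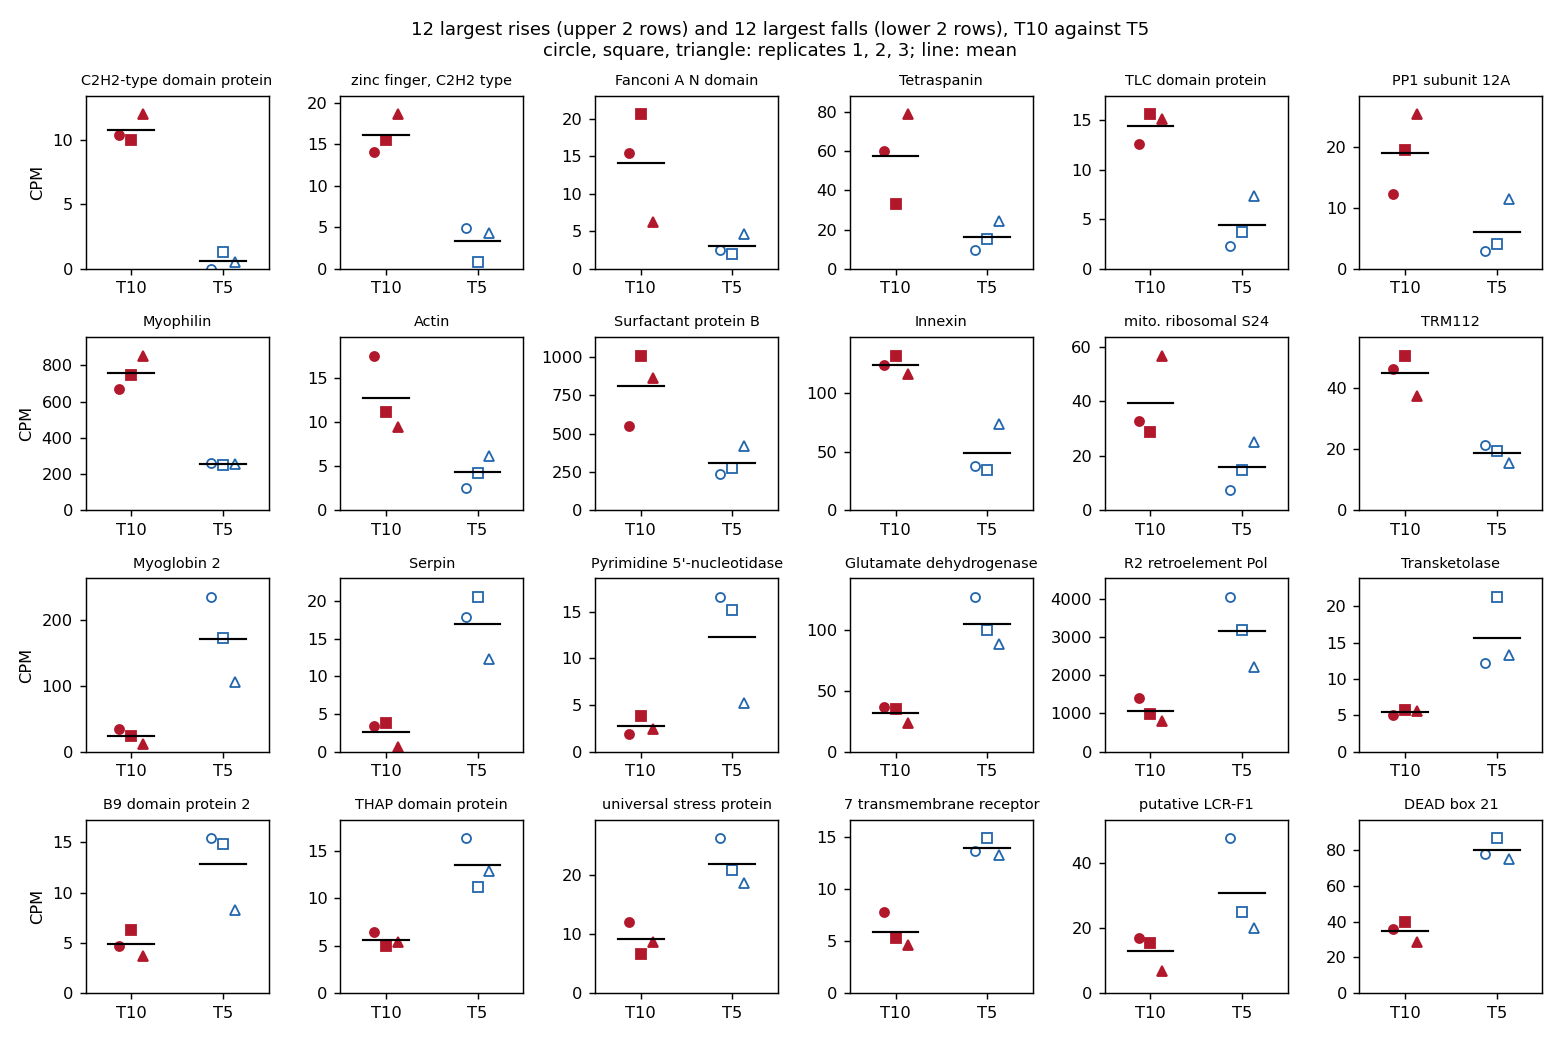
CPM in each T10 and T5 library (circle, square and triangle for replicates 1, 2 and 3, line for the mean) of the 12 named genes with the largest rises (upper 2 rows) and the 12 with the largest falls (lower 2 rows). Each axis starts at 0, and the groups do not overlap, as the choice required. Myophilin and the first C2H2 gene show small spreads, while T5 replicate 3 (open triangle) is the T5 library nearest to T10 for myoglobin 2 and pyrimidine 5'-nucleotidase.

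Most changed models have no product name in the parts of the annotation used here. The largest rise among them, maker-scaffold10x_1517_pilon-snap-gene-0.11-mRNA-1, had 19.3, 24.1 and 20.7 CPM at T10 and no count in any T5 or T0 library. With 3 counts per library as the floor it was at least 67.5-fold higher (adjusted p = 3.7e-05, edgeR). The largest fall of at least 10 CPM, maker-scaffold10x_890_pilon-snap-gene-0.12-mRNA-1, had 6.68, 8.03 and 6.34 CPM at T10 and 51.4, 104 and 40.6 CPM at T5 (log2 fold change -3.22 ± 0.30, adjusted p = 3.7e-05, edgeR). The next model without a name in each direction had 3.74, 8.13 and 18.7 CPM at T10 and 0.344, 0 and 1.83 CPM at T5 (maker-scaffold10x_538_pilon-pred_gff_StringTie-gene-0.13-mRNA-1), and 1.72, 1.18 and 0.696 CPM at T10 and 7.69, 15.0 and 7.89 CPM at T5 (maker-scaffold10x_2189_pilon-snap-gene-0.9-mRNA-1). In all, 22 models had at least 3 counts in each T10 library and none at T5, and 10 had the reverse. Only 6 and 3 of these were abundant enough to be tested, and all 9 were called. As the models were chosen for counts at one age alone, these calls add no support. Of the 22, the named ones are a DnaJ domain protein, a co-chaperone with 2.02, 1.96 and 3.17 CPM (adjusted p = 0.019, edgeR, and at least 7.53-fold higher), a cellulase with 3.84, 1.86 and 3.25 CPM, and a CUB domain protein with 0.506, 5.19 and 2.78 CPM. Of the 10, a GMC oxidoreductase had 0.919, 0.845 and 0.289 CPM at T5 and a protein of the TIGR00341 family 1.38, 4.12 and 0.963 CPM. Apart from the DnaJ protein these were picked after their values were seen.

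Further genes were grouped by product name into 41 lists, of which each is given here by its tested members, its calls and its median log2 fold change, beside 4.56% higher, 6.11% lower and a median of 0.02 over all tested genes. Over all 6319 tested genes, 3287 had a positive and 3031 a negative log2 fold change. Counts without T10 replicate 1 stand beside 8.95% higher, 15.0% lower and a median of 0.02 over all genes tested there. The names available here cover 24.8% of the coding models, so the lists are incomplete. Models of one family can share reads, in particular tubulins, actins, dynein light chains, histones, ferritins and cathepsins, and RSEM may have split these between near-identical copies.

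Among transcripts of the egg's protective and storage proteins few falls were called with all libraries, and more without T10 replicate 1. The 4 small heat shock proteins had 1 rise, 1 fall and a median of -0.70, and 3 falls without T10 replicate 1. The small heat shock protein NtermFhHSP35a, a chaperone of the alpha-crystallin type, is represented by an abundant and a minor model. The abundant model had 51878, 33788 and 26158 CPM at T10 and 75659, 65434 and 49466 CPM at T5. The groups overlap through T10 replicate 1 and T5 replicate 3, and its adjusted p was 0.11 with all libraries and 9.0e-04 without T10 replicate 1 (log2 fold changes -0.77 and -1.08, edgeR). The minor model fell in both fits, with 276, 246 and 216 CPM at T10 and 466, 461 and 365 CPM at T5 (log2 fold change -0.81 ± 0.16, adjusted p = 0.0074, edgeR). Another member, an Hsp20 protein, rose with 21.4, 29.7 and 25.7 CPM at T10 and 13.1, 10.4 and 15.3 CPM at T5 (log2 fold change 0.99 ± 0.31, adjusted p = 0.049, edgeR).

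The leading ferritin model, of the iron store, had 16736, 10058 and 7728 CPM at T10 and 20745, 17700 and 14220 CPM at T5, with an adjusted p of 0.17 with all libraries and 8.2e-04 without T10 replicate 1. Of 5 ferritin models 1 fell, with 426, 292 and 251 CPM at T10 and 675, 554 and 429 CPM at T5 (log2 fold change -0.77 ± 0.21, adjusted p = 0.029, edgeR), and without T10 replicate 1 this was 3. The list median was -0.50. For vitelline protein B1 T10 replicate 1 was above every T5 library and the other T10 libraries were below them. Its adjusted p was 0.57 with all libraries and 7.5e-04 without T10 replicate 1, with log2 fold changes of -0.33 and -0.98 (edgeR). A tyrosinase, of the enzymes that cross-link shell proteins, fell, with 1389, 911 and 731 CPM at T10 and 1972, 1671 and 1366 CPM at T5 (log2 fold change -0.72 ± 0.22, adjusted p = 0.049, edgeR), although T10 replicate 1 and T5 replicate 3 overlap. It was the 1 of 3 eggshell genes that was called, all 3 were without T10 replicate 1, and the list median was -0.33.

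Redox and glutathione enzymes, which remove peroxides and toxic compounds, showed 2 falls and no rise among 18 tested genes and a median of -0.47. Without T10 replicate 1 there were 10 falls and a median of -0.76. Glutathione S-transferase of the mu class had 1275, 850 and 732 CPM at T10 and 1875, 1848 and 1424 CPM at T5 (log2 fold change -0.85 ± 0.21, adjusted p = 0.022, edgeR). A glutathione peroxidase fell by 0.58 on the log2 scale (adjusted p = 0.047, edgeR). Of the 3 globins myoglobin 2 fell and the others, with negative log2 fold changes, were not called, with a list median of -1.62. Among 5 fatty acid-binding proteins, lipid carriers of the cytosol, whose list median was -0.02, type V rose, with 73.7, 70.3 and 66.7 CPM at T10 and 40.6, 35.1 and 48.9 CPM at T5 (log2 fold change 0.76 ± 0.17, adjusted p = 0.014, edgeR).

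Glycogen, the sugar store of vitelline cells, is handled by a list with 3 falls, no rise and a median of -0.56 over 10 tested genes, and with 7 falls and a median of -0.92 without T10 replicate 1. A glucan phosphorylase, which releases glucose phosphate from glycogen, had 2948, 1819 and 1859 CPM at T10 and 3889, 4162 and 3245 CPM at T5. The groups do not overlap (log2 fold change -0.77 ± 0.22, adjusted p = 0.035, edgeR). UTP-glucose-1-phosphate uridylyltransferase, which makes the sugar donor for glycogen, and a protein with the glycogen-binding domain CBM21 fell as well (log2 fold changes -1.04 and -0.84, adjusted p = 0.030 and 0.023, edgeR). Of 14 glycolysis genes 2 fell and none rose, with a median of -0.40, and without T10 replicate 1 there were 3 rises and 6 falls among 15. Pyruvate kinase, its last enzyme, had 293, 166 and 169 CPM at T10 and 412, 382 and 300 CPM at T5, close to overlap through T10 replicate 1 and T5 replicate 3 (log2 fold change -0.80 ± 0.20, adjusted p = 0.024, edgeR). The bifunctional enzyme that sets the level of fructose 2,6-bisphosphate fell by 0.99 on the log2 scale (adjusted p = 0.026, edgeR).

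The respiratory chain and the ATP synthase, which burn fuel in mitochondria, stood on the other side, with 4 rises, no fall and a median of 0.21 over 43 tested genes, of which 35 had a positive log2 fold change. Named rises are ATP synthase subunit e, with 79.7, 32.9 and 46.6 CPM at T10 and 25.3, 23.8 and 29.2 CPM at T5, and a pair of complex I subunits, the 20 kDa subunit and a beta subunit (log2 fold changes 0.55 and 0.45, adjusted p = 0.034 and 0.045, edgeR). ATP synthase subunit e lost its call without T10 replicate 1 (adjusted p = 0.066, edgeR), and 2 of the 4 rises of this list were kept there, while the list as a whole had 6 rises and a median of 0.24. In the tricarboxylic acid cycle, of 11 genes a subunit of succinate-CoA ligase rose and a fumarate hydratase fell (log2 fold changes 0.64 and -0.56, adjusted p = 0.021 and 0.019, edgeR). The list median was 0.04.

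Cytosolic ribosomal proteins gave the list with the most rises, 11 of 71 tested (15.5%), with no fall and a median of 0.41. Of its members 69 had a positive log2 fold change. The summed level of the list was 71740, 52065 and 47631 CPM at T10 and 46544, 38458 and 44441 CPM at T5. The groups are separate, but T10 replicate 1 is far above the rest and T10 replicate 3 is close to T5 replicate 1. Ribosomal protein S4 had 1569, 942 and 966 CPM at T10 and 656, 562 and 776 CPM at T5 (log2 fold change 0.80 ± 0.20, adjusted p = 0.021, edgeR), and 0.52 with adjusted p = 0.0078 without T10 replicate 1. Ribosomal protein L37 and a protein of the L18p/L5e family rose alike (log2 fold change 0.73 each, adjusted p = 0.020 and 0.024, edgeR). Without T10 replicate 1 the list had 9 rises, all of them among the 11, and a median of 0.26. With library size alone 57 of the 71 were called higher with a median of 0.62, beside 0.25 over all tested genes. With only the 6 libraries of T5 and T10 in the fit 1 was called higher. Product names without a compartment were counted as cytosolic.

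Other lists of gene expression had positive medians as well. Mitochondrial ribosomal proteins had 2 rises among 12 genes and a median of 0.40, and 5 rises without T10 replicate 1. S24 had 32.8, 28.6 and 56.8 CPM at T10 and 7.46, 14.6 and 25.1 CPM at T5, where T5 replicate 3 comes close to T10 (log2 fold change 1.32 ± 0.35, adjusted p = 0.026, edgeR), and L27 rose less (log2 fold change 0.50, adjusted p = 0.034, edgeR). Histones had 2 rises among 10 genes, no negative log2 fold change and a median of 0.64. A histone H3 had 65.0, 59.1 and 87.1 CPM at T10 and 34.2, 33.2 and 48.6 CPM at T5 (log2 fold change 0.86 ± 0.23, adjusted p = 0.026, edgeR), and a histone H2A had 1523, 2198 and 1707 CPM at T10 and 1266, 961 and 1301 CPM at T5 (log2 fold change 0.62 ± 0.19, adjusted p = 0.044, edgeR). Splicing factors had 3 rises, no fall and a median of 0.22 over 26 genes, and 8 rises and 1 fall without T10 replicate 1. Serine/arginine-rich splicing factor 1, which helps to choose splice sites, had 23.9, 30.1 and 20.6 CPM at T10 and 12.3, 11.6 and 10.8 CPM at T5 (log2 fold change 1.10 ± 0.26, adjusted p = 0.017, edgeR). The survival of motor neuron splicing factor and snRNP E rose by 0.53 and 0.49 on the log2 scale (adjusted p = 0.040 and 0.032, edgeR).

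Translation factors had 2 rises and 1 fall among 33 genes with a median of 0.14, and the fall is initiation factor 4G, the scaffold of the cap-binding complex, with 716, 643 and 598 CPM at T10 and 966, 1056 and 863 CPM at T5 (log2 fold change -0.56 ± 0.16, adjusted p = 0.035, edgeR). Of 16 aminoacyl-tRNA synthetases the leucyl enzyme rose (log2 fold change 0.77, adjusted p = 0.014, edgeR), and the list median was 0.22. Of 23 ribosome biogenesis genes none rose and dyskerin, which converts uridine to pseudouridine in rRNA, fell (log2 fold change -0.46, adjusted p = 0.046, edgeR). That list had a median of 0.15. Of 30 genes of DNA replication and the cell cycle, Ctf8, which helps to load the replication clamp, rose and a cyclin fell (log2 fold changes 0.53 and -0.72, adjusted p = 0.042 and 0.034, edgeR), with a median of 0.06. For the cyclin T10 replicate 1 and T5 replicate 3 overlap. Without T10 replicate 1 that list had 7 rises and 5 falls.

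Of 12 subunits of the 20S proteasome, the core that degrades tagged proteins in the cytosol, 2 rose and none fell, with a median of 0.29. A beta subunit had 96.9, 91.9 and 85.5 CPM at T10 and 43.6, 48.3 and 63.2 CPM at T5 (log2 fold change 0.82 ± 0.18, adjusted p = 0.011, edgeR). Of 19 genes of the 26S regulatory particle, an ATPase of the P45 family rose (log2 fold change 0.43, adjusted p = 0.048, edgeR), and the median was 0.21. The cysteine cathepsins, peptidases of lysosomes and secretory granules, had 6 tested models of 13, all with a negative log2 fold change and a median of -0.91. Cathepsin B fell in every fit that left out 1 T5 or T10 library, with 273, 353 and 315 CPM at T10 and 574, 506 and 528 CPM at T5 (log2 fold change -0.77 ± 0.15, adjusted p = 0.0073, edgeR). It was highest at T5, since T0 libraries had 219 to 261 CPM. The most abundant cathepsin L had 1249, 806 and 747 CPM at T10 and 1404, 1430 and 1175 CPM at T5. It was called without T10 replicate 1 only (adjusted p = 0.10 and 3.8e-04, log2 fold changes -0.52 and -0.78, edgeR). The secreted cathepsins L, the digestive enzymes of adult worms, were low, with at most 4.45 CPM at T10 and 8.84 CPM at T5 in any library. The leading secreted L1 model had 118 to 185 CPM at T0, and secreted L2 had 28.5 to 33.8 CPM. Neither was called with all libraries (adjusted p = 0.11 and 0.055, edgeR). Both were lower without T10 replicate 1 (log2 fold changes -1.62 and -2.02, adjusted p = 0.01 and 0.004, edgeR). A minor secreted L1 model was called in neither fit. Another 6 named models of cathepsins B and L, serpin or noggin were not abundant enough to be tested.

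Cathepsin D, an aspartic peptidase of lysosomes, had 2499, 1943 and 1528 CPM at T10 and 3856, 3237 and 2589 CPM at T5. Its groups are separate by a small margin, and its adjusted p was 0.051 with all libraries and 8.6e-04 without T10 replicate 1 (log2 fold changes -0.70 and -0.90, edgeR). Peptidase inhibitors had 2 falls, no rise and a median of -0.67 over 7 tested genes, and 5 falls and a median of -1.08 without T10 replicate 1. Beside serpin, a Kunitz-type inhibitor fell, with 63.8, 46.5 and 48.5 CPM at T10 and 124, 89.2 and 89.0 CPM at T5 (log2 fold change -0.93 ± 0.17, adjusted p = 0.0060, edgeR). Stefin-1, which blocks cysteine cathepsins, had 418, 387 and 365 CPM at T10 and 462, 449 and 426 CPM at T5 and was not called (adjusted p = 0.41, edgeR). None of 17 other peptidases was called, with a median of 0.05. In that list lon protease of the mitochondria had 112, 130 and 132 CPM at T10 and 133, 159 and 173 CPM at T5 (adjusted p = 0.20), and proline iminopeptidase 881, 733 and 694 CPM at T10 and 797, 872 and 731 CPM at T5 (adjusted p = 0.86, edgeR for both).

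In lists named for parts of the larval body single members rose. Of 11 tubulin models, the units of microtubules, 2 rose and the median was 0.32. A beta chain had 1070, 1051 and 975 CPM at T10 and 592, 544 and 725 CPM at T5 (log2 fold change 0.73 ± 0.15, adjusted p = 0.011, edgeR), and an alpha chain rose by 0.71 on the log2 scale (adjusted p = 0.012, edgeR). Of 11 dynein light chains, small subunits of microtubule motors, 1 rose, with 285, 262 and 276 CPM at T10 and 128, 113 and 145 CPM at T5 (log2 fold change 1.09 ± 0.16, adjusted p = 0.0014, edgeR), while the list median was -0.46. Of 53 models named for the axoneme and cilia only 23 could be tested. WD repeat-containing protein 16, which lies in motile cilia, rose, with 162, 198 and 203 CPM at T10 and 111, 118 and 125 CPM at T5 (log2 fold change 0.67 ± 0.14, adjusted p = 0.010, edgeR), and B9 domain-containing protein 2 fell. The summed level of the list was 813 to 902 CPM at T10, 658 to 712 CPM at T5 and 761 to 845 CPM at T0. At T10 18 models were at 0 in all libraries, and at T5 19. The median log2 fold change was -0.05, or 0.26 with library size alone, where all tested genes had 0.25.

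Muscle is represented by 6 tested genes with 1 rise, that of myophilin, and a median of 0.09. The summed level of the list was 1223, 1269 and 1317 CPM at T10 and 840, 766 and 753 CPM at T5, after 631 to 655 CPM at T0. Myophilin alone gave 669 to 854 CPM of this at T10 and 250 to 258 CPM at T5. Of 3 tested actins the one described above rose, the median was 0.33, and 4 of the 10 models named actin had no count at T10. Nerve and neurosecretory proteins had 1 rise, that of the innexin, 2 falls and a median of -0.41 over 14 genes, and 8 falls without T10 replicate 1. The calcium-dependent secretion activator, which primes secretory vesicles, had 190, 102 and 86.5 CPM at T10 and 244, 222 and 188 CPM at T5, with T10 replicate 1 just above the lowest T5 library (log2 fold change -0.79 ± 0.23, adjusted p = 0.038, edgeR). A synaptobrevin, which fuses vesicles with membranes, fell by 0.53 on the log2 scale (adjusted p = 0.045, edgeR). The summed level of the nerve list was 7869, 5387 and 4824 CPM at T10 and 10256, 9271 and 7518 CPM at T5. It was highest in freshly laid eggs, with 14001, 14070 and 16689 CPM at T0. In which cells these transcripts lay was not tested. The part of these tissue lists in any other result was not tested.

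Tetraspanins had 1 rise, 3 falls and a median of -0.06 over 10 genes. The most abundant of those that fell had 3282, 2930 and 2412 CPM at T10 and 5658, 5033 and 3939 CPM at T5 (log2 fold change -0.76 ± 0.21, adjusted p = 0.035, edgeR), and tetraspanin-6 had 532, 295 and 284 CPM at T10 and 683, 681 and 562 CPM at T5 (log2 fold change -0.79 ± 0.21, adjusted p = 0.028, edgeR). The tetraspanin that rose, from a low level, thus moved against the abundant ones. Of 8 receptors with 7 transmembrane passes 1 fell and the median was -0.38, or -0.83 without T10 replicate 1. EF-hand proteins, which bind calcium, had 1 rise, 2 falls and a median of -0.35 over 17 genes. The one that rose had 5.77, 11.9 and 11.5 CPM at T10 and 0, 0 and 0.674 CPM at T5, nearly absent before T10 (adjusted p = 0.0096, edgeR). A fragment model with an EF hand fell, with 322, 249 and 190 CPM at T10 and 576, 514 and 416 CPM at T5 (log2 fold change -0.98 ± 0.19, adjusted p = 0.0074, edgeR), and so did a calmodulin-like gene (log2 fold change -0.74, adjusted p = 0.016, edgeR).

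Developmental transcription factors had 3 falls, no rise and a median of -0.46 over 17 genes, and 7 falls without T10 replicate 1. LMO4, a LIM protein that joins transcription complexes, had 109, 179 and 139 CPM at T10 and 227, 241 and 210 CPM at T5 (log2 fold change -0.67 ± 0.16, adjusted p = 0.020, edgeR). Here T10 replicate 1 is the lowest library. A helix-loop-helix zipper protein had 560, 480 and 407 CPM at T10 and 842, 746 and 614 CPM at T5 (log2 fold change -0.61 ± 0.17, adjusted p = 0.035, edgeR). The nuclear receptor 2DBD gamma, of a receptor type with a double DNA-binding domain, fell by 0.55 on the log2 scale at the edge of the threshold (adjusted p = 0.050, edgeR). Its groups overlap through T10 replicate 1 and T5 replicate 3.

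Of 10 patterning signals and receptors 1 fell, an epidermal growth factor isoform with 363, 228 and 198 CPM at T10 and 528, 522 and 355 CPM at T5 (log2 fold change -0.83 ± 0.22, adjusted p = 0.027, edgeR), with overlap of T10 replicate 1 and T5 replicate 3. Hedgehog, a secreted signal that patterns embryos, had 1370, 1070 and 966 CPM at T10 and 829, 708 and 830 CPM at T5. The groups do not overlap, but its adjusted p was 0.052 with all libraries and 0.040 without T10 replicate 1 (log2 fold changes 0.53 and 0.37, edgeR). Noggin, which blocks bone morphogenetic proteins, had 42.6, 64.7 and 60.9 CPM at T10 and 45.7, 32.2 and 52.4 CPM at T5, which overlap (adjusted p = 0.42, edgeR). The list median was -0.05. Of 12 cell death genes a Bcl-2 family regulator fell, with overlap between T10 replicate 1 and T5 replicate 3 (log2 fold change -0.72, adjusted p = 0.042, edgeR), and the median was -0.21. Without T10 replicate 1 the list had 2 rises and 5 falls.

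The secretory pathway had 5 rises and 1 fall among 41 genes with a median of 0.01, among them the ER lumen protein-retaining receptor, which returns proteins to the endoplasmic reticulum (log2 fold change 0.55, adjusted p = 0.019, edgeR), and an oligosaccharyltransferase subunit that fell (log2 fold change -0.62, adjusted p = 0.024, edgeR). Of 9 subunits of the V-type ATPase, a proton pump, catalytic subunit A rose (log2 fold change 0.55, adjusted p = 0.035, edgeR), and the median was -0.03. HSP70, HSP90 and DnaJ chaperones had 1 rise, 1 fall and a median of -0.18 over 27 genes (1 rise, 6 falls and -0.31 without T10 replicate 1), and the rise is the DnaJ protein without counts at T5. None of 13 subunits of CCT and prefoldin was called, with a median of 0.14, and the leading zeta subunit had 654, 890 and 848 CPM at T10 and 732, 662 and 744 CPM at T5. Retroelements had 3 falls, the R2 element among them, no rise and a median of 0.02 over 17 genes. With library size alone the medians of the tetraspanins, patterning signals, fatty acid-binding proteins, HSP70 group, V-type ATPase and cell death genes turned positive, at 0.16, 0.16, 0.15, 0.03, 0.20 and 0.01. All of these lie below the median of 0.25 that all tested genes had under this scaling. The medians of the secretory pathway and the retroelements were negative with size factors from DESeq2, at -0.02 and -0.01, where all tested genes had -0.01.

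Lists for which counts without T10 replicate 1 have not been given changed as follows. More falls were called there in cysteine cathepsins (4), globins (2), fatty acid-binding proteins (2), dynein light chains (3), tetraspanins (5, beside 2 rises), EF-hand proteins (5), 7 transmembrane receptors (2) and retroelements (5, beside 1 rise). More calls in both directions came in translation factors (6 rises and 4 falls), the secretory pathway (7 and 5), the tricarboxylic acid cycle (2 and 2) and aminoacyl-tRNA synthetases (3 and 1). The 26S particle had 4 rises and 1 fall, ribosome biogenesis 3 and 1, other peptidases 2 and 1, and V-type ATPase 2 and 1. Tubulins and C2H2 genes had 2 rises and 2 falls each, patterning signals 1 and 1, and actins no rise and 1 fall. Histones, the 20S proteasome, muscle proteins, CCT and prefoldin, and the axoneme kept their counts of rises and falls.

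Seen by library, the T10 samples differed in how far each list had moved from the T5 mean. For redox and glutathione enzymes the median difference in log2 was -0.09 in T10 replicate 1, -0.61 in replicate 2 and -0.86 in replicate 3. For ferritins it was -0.05, -0.79 and -0.88, for glycogen metabolism -0.18, -0.85 and -0.95, for peptidase inhibitors -0.09, -0.92 and -1.03, and for cysteine cathepsins -0.31, -0.91 and -0.94. In these lists the median of T10 replicate 1 was nearer to T5 than that of the other T10 libraries, although for cathepsin B itself T10 replicate 1 was the lowest library. Cytosolic ribosomal proteins showed the reverse, with 0.71 in T10 replicate 1, 0.25 in replicate 2 and 0.20 in replicate 3, and the 20S proteasome did so with 0.43, 0.17 and 0.17. Mitochondrial ribosomal proteins, at 0.30, 0.50 and 0.36, and histones, at 0.48, 0.54 and 0.25, were shared by all 3. The position of T10 replicate 1 therefore depends on the gene group, nearer to T5 for the falling groups and beyond the other T10 libraries for ribosomal proteins.

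**Figure D5:**
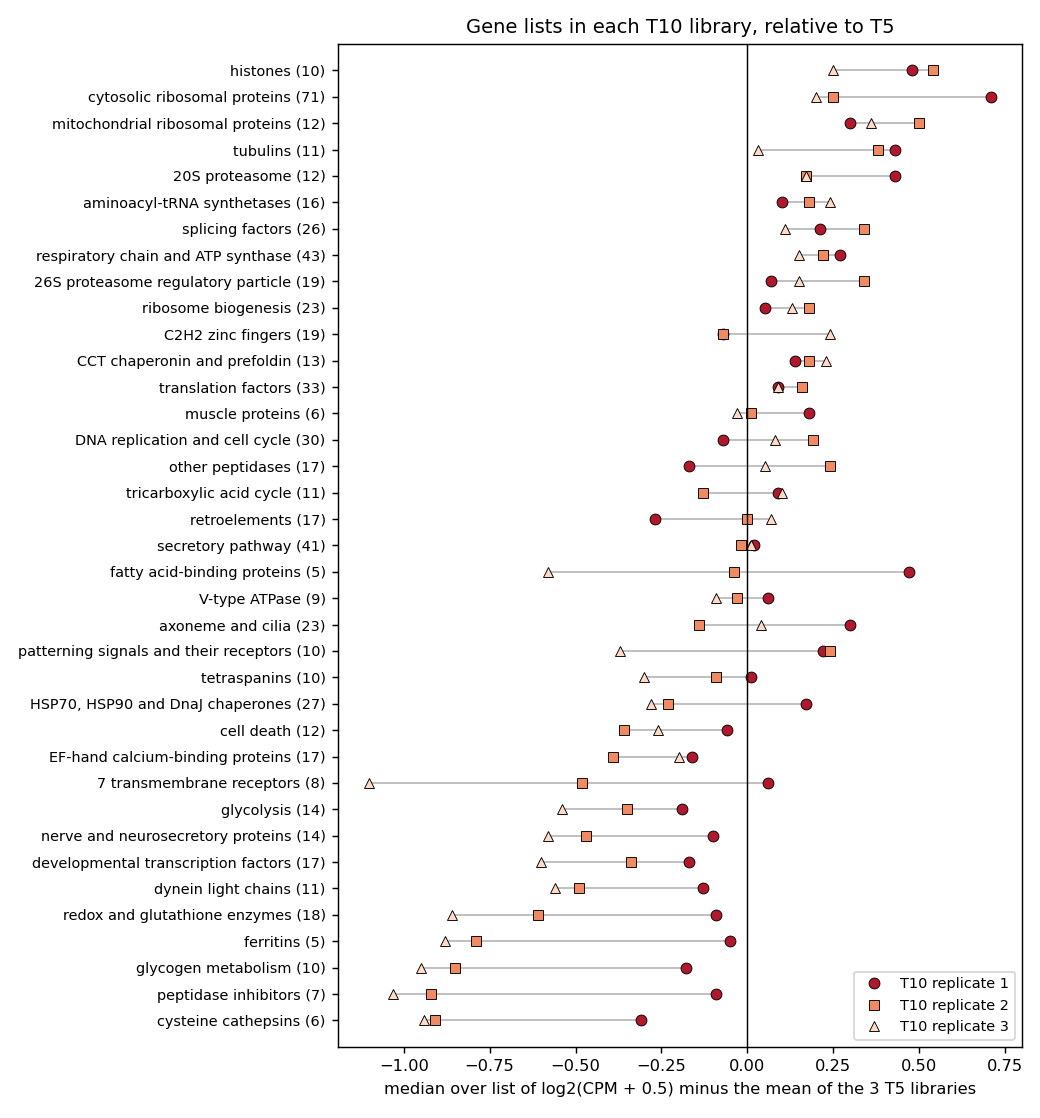
Median over the tested members of each gene list (number in brackets) of log2(CPM + 0.5) in a T10 library minus the mean of the 3 T5 libraries, for T10 replicates 1 (circle), 2 (square) and 3 (triangle). Lists with fewer than 5 tested members are left out. In the lowest 5 lists, replicate 1 lies between -0.05 and -0.31 and replicates 2 and 3 between -0.61 and -1.03. For cytosolic ribosomal proteins replicate 1 is highest, at 0.71.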

How the data were processed

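Reads of the 3′ ends of polyadenylated RNA (QuantSeq FWD) were trimmed by the authors, aligned to predicted transcripts with Bowtie2 and quantified with RSEM 1.3.3, and 1 table per sample was deposited. The deposited expected counts are RSEM's estimates of reads per model, without normalization. The TPM values deposited beside them come from the same RSEM run of the authors and served only for the rule of expression and an alternative fit. The deposited FPKM values of the authors, counts per length and library total, were not used here. The submitters' processing notes also name bcl2fastq 2.20.0.422, FastQC 0.11.8, Trimmomatic 0.38 and, for the authors' own tests, DESeq2 1.29.6 under R 4.0.1.

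The 7098 tRNA models were left out. Expected counts were rounded, filtered with filterByExpr and fitted with edgeR 4.0.16 in R 4.3.3 (TMM factors, robust quasi-likelihood F-test, 1 coefficient per time point over all 9 libraries, contrast T10 minus T5). TMM factors were 1.036, 1.273 and 1.355 at T10 and 0.974, 1.03 and 1.119 at T5, and the biological coefficient of variation was 0.244. SE was taken as the absolute log2 fold change over the root of F, an approximation. The step was tested on simulated data. A floor of 3 counts equals 0.314 to 0.374 CPM at T10 and 0.323 to 0.335 CPM at T5 before TMM.

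Product names came from the study's annotation tables, of which the parts used here name 2406 coding models. Of these, named genes are the 12 largest rises and 12 largest falls with an adjusted p under 0.05, at least 10 mean CPM in the higher time point, an informative name and no overlap between T10 and T5. Up to 3 called members per list, or else the most abundant one, genes the study names, and unnamed models (2 at most per direction) by the same rule were added. Members and lists were chosen with earlier results of these data known. Alternatives were RLE and upper-quartile factors, library size only, DESeq2 1.42.0, limma 3.58.1 on log2(TPM + 1) and log2(TPM + 0.1), voom with sample quality weights, other filters, a replicate block, the 6 libraries alone, and each library left out in turn. Placing a left-out T5 library was added after the data were seen. Python 3.11.15 with pandas 2.3.3, numpy 2.4.6 and matplotlib 3.10.9 did the rest.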

Additional observations from a re-analysis of the deposited data

How the results depend on the processing

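The text gives 288 genes higher and 386 lower at T10, 179 changed beyond a log2 fold change of 1 and 88 gene list members called. In this order, library size only gave 684, 247, 226 and 198, DESeq2 on all 9 libraries 361, 616, 225 and 152, and edgeR on only the 6 libraries 125, 142, 120 and 28. limma voom with sample quality weights gave 601, 840, 385 and 195, and limma gave 494, 295, 217 and 177 on log2(TPM + 1) and 390, 261, 191 and 160 on log2(TPM + 0.1). Leaving out each library in turn, T0 included, the counts ran between 44 and 579 higher, 62 and 973 lower, 69 and 433 beyond a log2 fold change of 1, and 14 and 209 list members. Each of these lowest values belongs to the fit without T5 replicate 2 and each of these highest to the fit without T10 replicate 1. RLE or upper-quartile factors, DESeq2 on the 6 libraries, no filter on low counts and a filter of 10 CPM in 3 libraries kept all 4 counts within 1.5 times. The position of T10 replicate 1, at 0.35, was 0.33 with library size only and 0.34 with the filter of 10 CPM. The cause of these shifts was not tested.

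Replicate numbers are shared between T10 and T5, but deviations of same-numbered libraries correlated at 0.06, -0.04 and 0.16, so the numbers were not taken as pairs. With a replicate block the counts were 300, 479, 208 and 100. Of the 90 genes named and called, 87 kept their call with the block, 88 without T10 replicate 1, 41 in the 6 libraries alone and 23 without T5 replicate 2, and none reversed under any alternative. A call can thus rest on 1 library, and genes at or under the floor of 3 counts could not be compared at this depth.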
